A study of Homo sapiens with 6 samples.

Results

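Receptor tyrosine kinases other than the ERBB family, together with the ephrins and the ligand GAS6, were followed in A549, a widely used cell line grown from a human lung adenocarcinoma. A fixed list of 45 gene symbols was matched to the array's probe annotation, and 44 of them were measured among 18244 genes in all. The remaining 1 was not analysed here. Each gene was read from the brightest of its probe sets, by mean over the 6 arrays, and the other probe sets of the gene served as a check.

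The groups compared were A549 cells given a lentivirus with a short hairpin RNA against TIGD1 (shTIGD1, 3 arrays) and A549 cells given a lentivirus with a negative control hairpin (shControl, 3 arrays). Hairpin RNAs of this kind are cut by the cell into small RNAs that direct the decay of a matching transcript. A single hairpin sequence stood for each group, and the labels do not say whether the numbered replicates were grown apart. Each p-value so reflects only how much these arrays vary, which may be technical, and the number of arrays limits the precision.

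A receptor tyrosine kinase spans the cell membrane once in most families, binds its ligand outside and, when receptors are brought together, phosphorylates tyrosines that recruit adaptor proteins and switch on the RAS-ERK and PI3K-AKT pathways. Ephrins differ from most ligands of such receptors in being tethered to the neighbouring cell, so that EPH receptors are engaged by contact and both cells can receive a signal. In lung adenocarcinoma, MET, RET and ROS1 are known as drivers when altered, and AXL and FGF receptors are known as routes by which tumour cells escape inhibitors of other kinases.

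Array medians were alike, between 6.27 and 6.28 on the log2 scale. TIGD1, the gene targeted, read 6.88, 6.84 and 6.86 on the shTIGD1 arrays, against 6.96, 6.93 and 6.85 on the shControl arrays, and it did not pass the test (log2 difference -0.06, SE 0.04, limma adjusted p = 0.389; exact permutation p = 0.3, two-sided, where 0.1 is the smallest that 3 arrays against 3 can give). The directions below are therefore those of the labels. The keratins KRT7, KRT8 and KRT18 were bright in both groups, and of 6 alveolar type II markers, SFTPA1 and LAMP3 had a mean under 5 in both, the level called near background here. LAMP3 passed as higher even so (0.34, limma adjusted p = 0.0411). The other 4 did not pass, with ABCA3 at 8.68 in shTIGD1, against 8.80 in shControl, SFTPC at 6.13 against 6.22, NKX2-1 at 5.85 against 5.85 and SFTPB at 5.51 against 5.59. CDKN2A, which A549 cells are known to have lost by deletion, was higher on the arrays labelled shTIGD1 with all 3 of its probe sets. Its brightest was at 6.22 ± 0.13 in shTIGD1, against 5.66 ± 0.09 in shControl (SD, n = 3 each). The second brightest was at 7.35 ± 0.12 in shTIGD1, against 3.93 ± 0.15 in shControl, and the dimmest differed by 0.59. Of 23 background control probe sets, ordered by how many of their bases are G or C, the 14 with 12 or more such bases were lower in every shTIGD1 array than in any shControl array. From 15 such bases upward the difference lay between -0.06 and -0.23. The part of these control values in the small differences below was not tested.

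All 4 FGF receptors, IGF1R, INSR, AXL and the ephrin EFNB2 rose in the arrays labelled shTIGD1. The ephrins EFNA1 and EFNA3 fell, as did the receptors EPHA2, EPHB4, ROR1 and DDR1. Together these are the 14 of 44 genes that passed a limma adjusted p of 0.05, where 23.8% of all genes passed. The 8 that rose compare with 9.81% of all genes, and the 6 that fell with 14% of all genes. With arrays levelled on the hybridization controls 20 passed as higher and 3 as lower, where 47.9% of all genes were higher and 1.98% lower. With the poly-A controls 33 passed as higher and 3 as lower, where 76.5% of all genes were higher and 0.652% lower. Each of the 14 had a mean signal of at least 6, a level reached by 24 of the 44, and 35.1% of all genes at that level passed. Of the 20 dimmer genes, 0 passed the limma test after adjustment, where 7.48% of all genes under a mean signal of 6 passed. An unadjusted p under 0.05 was found for 4 of the 20 (EPHA5, KIT, PDGFRB and PTK7). The share of all genes with such an unadjusted p was not counted. The changes were small, with the largest, in EFNA3, at 1.55-fold. Of the 14, 8 changed by at least 0.3 on the log2 scale, and 7.59% of all genes both passed and changed by that much. The groups did not overlap for 22 of the 44 genes, 11 higher and 11 lower in shTIGD1, where 42.3% of all genes were separate (16.9% higher and 25.5% lower). The median log2 change of the 44 genes was -0.06, and that of all genes was -0.04.

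**Figure D1:**
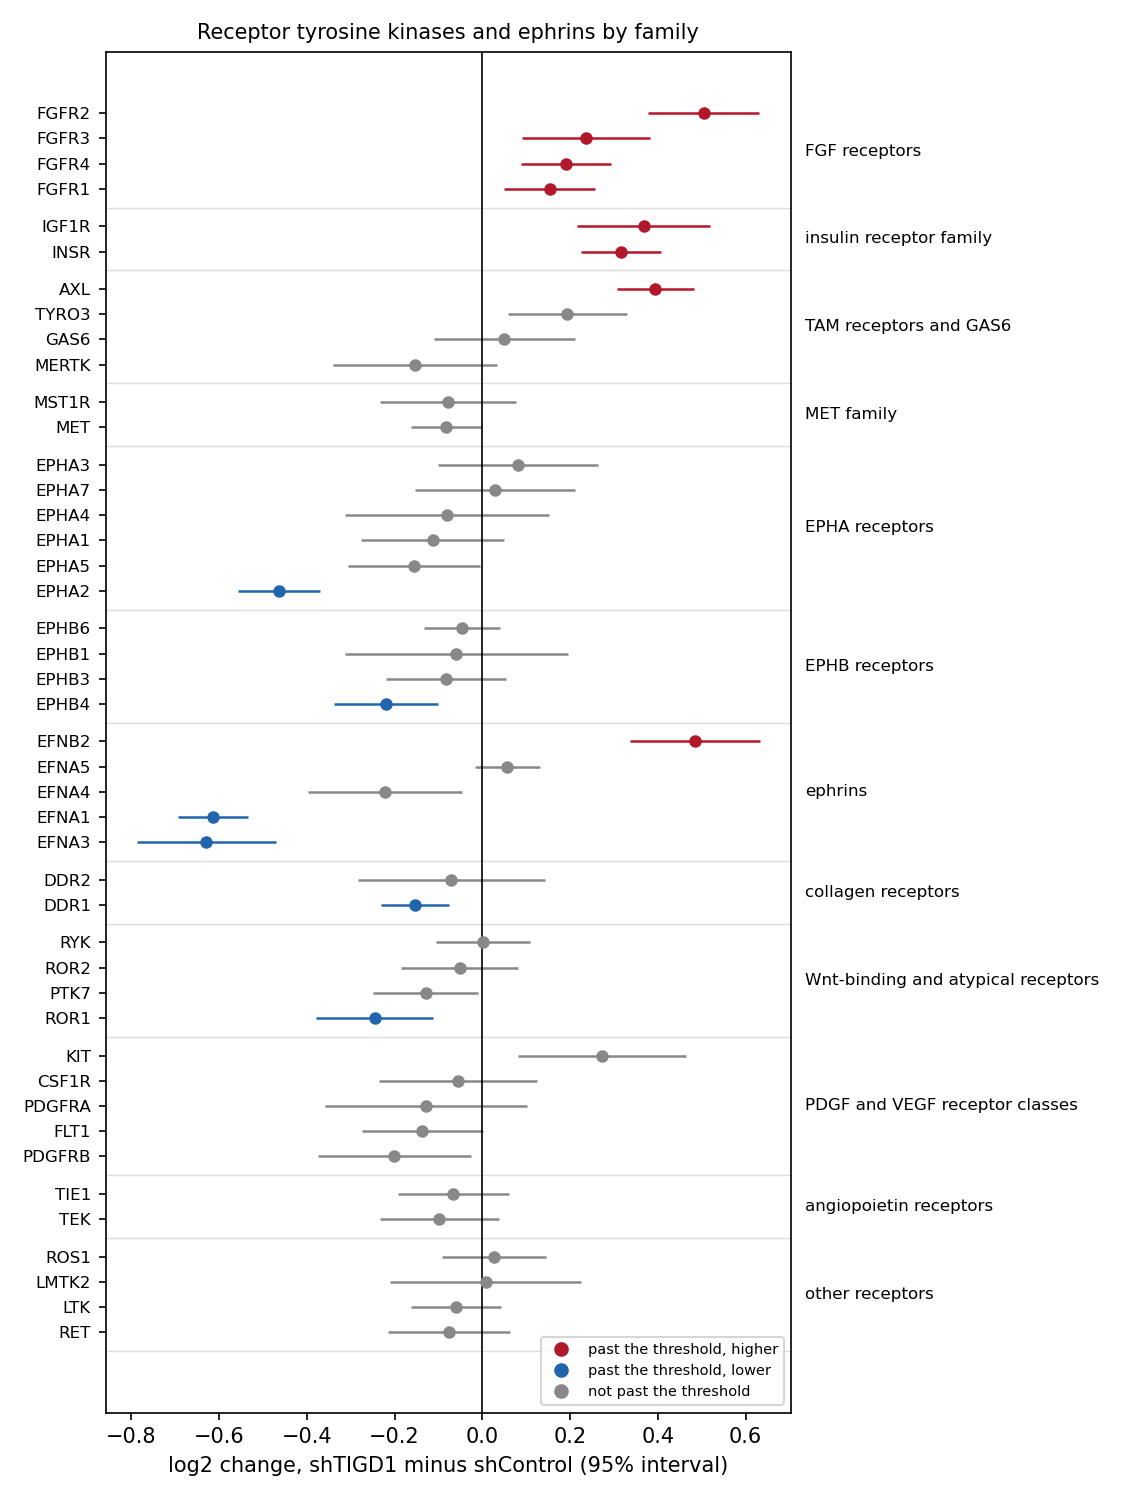
Log2 change of the 44 genes, shTIGD1 minus shControl, with 95% intervals from limma, grouped by receptor family. Red marks genes that passed as higher, blue as lower and grey those that did not pass. The 4 FGF receptors, IGF1R and INSR lie right of 0, and EFNA1, EFNA3 and EPHA2 lie farthest left.

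The promoters of EFNA3 and EFNA1, which fell, and of FGFR2 and AXL, which rose, are shown to set genes of opposite direction side by side. Each is the 250 bases before the annotated start in RefSeq (GRCh38.p14), 5′ to 3′ in the direction of the gene, and capitals mark the GC box GGGCGG on either strand.
EFNA3, chr1:155078587-155078836, plus strand: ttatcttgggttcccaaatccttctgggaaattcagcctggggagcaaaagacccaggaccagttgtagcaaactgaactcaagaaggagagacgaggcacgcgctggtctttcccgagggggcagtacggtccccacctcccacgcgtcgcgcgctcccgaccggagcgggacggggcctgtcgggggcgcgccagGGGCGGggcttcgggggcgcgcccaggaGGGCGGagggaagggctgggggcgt
EFNA1, chr1:155127626-155127875, plus strand: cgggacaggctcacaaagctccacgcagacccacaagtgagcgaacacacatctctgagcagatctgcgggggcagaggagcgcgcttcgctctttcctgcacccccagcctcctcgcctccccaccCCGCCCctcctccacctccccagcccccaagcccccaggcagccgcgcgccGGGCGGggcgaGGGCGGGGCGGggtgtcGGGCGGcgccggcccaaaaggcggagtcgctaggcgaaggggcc
FGFR2, chr10:121598445-121598694, minus strand: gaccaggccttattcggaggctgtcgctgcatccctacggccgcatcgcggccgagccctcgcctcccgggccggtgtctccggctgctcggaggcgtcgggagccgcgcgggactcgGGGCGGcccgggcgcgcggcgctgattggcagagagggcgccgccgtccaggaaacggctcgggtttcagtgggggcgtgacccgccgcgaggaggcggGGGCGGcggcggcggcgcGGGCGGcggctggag
AXL, chr19:41218973-41219222, plus strand: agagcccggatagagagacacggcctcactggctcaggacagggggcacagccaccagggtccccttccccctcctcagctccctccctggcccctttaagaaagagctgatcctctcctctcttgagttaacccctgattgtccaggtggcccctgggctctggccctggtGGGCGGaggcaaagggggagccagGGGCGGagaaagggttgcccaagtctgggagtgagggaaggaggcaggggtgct
EFNA3 held 2 GC boxes, EFNA1 5, FGFR2 3 and AXL 2. Matches were counted on both strands, and neighbouring matches could overlap. The GC box was present in the promoters of 7 of 7 genes that rose and 4 of 6 that fell, among the 43 with a promoter in the table, and in 23 of 30 that did not pass. It was present in 42.3% of all 27305 promoters. The median GC content was 68.4% for the 43 and 58% for all. The AP-1 site TGANTCA was found in 0 of the 13 promoters of genes that passed, in 3 of 30 that did not pass and in 6.6% of all promoters. The NF-kB consensus was found in FGFR4 and DDR1 among the 13, in 3 of 30 that did not pass and in 9.57% of all. A match describes letters only.

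The ephrins changed in opposite directions, and EFNA3 and EFNA1 had the largest falls of the 44 genes. EFNA1, a ligand of EPHA2 that is known to be induced by TNF in endothelial cells, read 10.85, 10.83 and 10.83 in shTIGD1, against 11.41, 11.47 and 11.47 in shControl. The arrays of each group lay close together, and the groups were well apart. EFNA1 fell by 0.61 on the log2 scale, or 1.53-fold (SE 0.03, limma adjusted p = 0.000293, n = 3 each), and its other probe set fell by 0.45. EFNA3, another ligand of EPHA receptors held by a lipid anchor, read 6.65, 6.62 and 6.71 in shTIGD1, against 7.15, 7.37 and 7.34 in shControl. It was lower on all 3 shTIGD1 arrays and fell by 0.63 (SE 0.07, limma adjusted p = 0.00184). All 5 of its probe sets were lower, between -0.63 and -0.26, and 2 of them passed.

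EFNA4 read 6.90, 6.83 and 6.90 in shTIGD1, against 7.11, 7.23 and 6.95 in shControl. Its groups did not overlap, but it missed the threshold (log2 difference -0.22, SE 0.07, limma adjusted p = 0.0747). EFNA5, another lipid-anchored ephrin, had a difference of 0.06 (SE 0.03, limma adjusted p = 0.239). EFNB2, a transmembrane ephrin that binds EPHB4 and is known as a marker of arteries, read 7.18, 7.34 and 7.22 in shTIGD1, against 6.70, 6.86 and 6.74 in shControl. It rose by 0.48 with its brightest probe set (SE 0.06, limma adjusted p = 0.00345), while its 3 dimmer probe sets were at 0.06 to 0.23 and did not pass. The other B-type ephrins, from the list of related genes, also differed in sign. EFNB1 fell by 0.47 (SE 0.10, limma adjusted p = 0.0182) with its brightest of 3 probe sets, the others at 0.09 and -0.15. EFNB3 rose by 0.32 (SE 0.08, limma adjusted p = 0.0281).

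EFNA4, EFNA3 and EFNA1 lie next to each other on chromosome 1 in the RefSeq gene table of GRCh38.p14, and their neighbours were looked up after the values had been seen. Of the 12 nearest measured protein-coding genes, 6 on each side, 4 fell, 1 rose and 7 did not pass. Of all genes, 14% passed as lower and 9.81% as higher. The log2 changes of the 12 neighbours lay between -0.20 and 0.25, with a median of -0.08. ADAM15, a membrane protease gene and the nearest measured one before EFNA4, fell by 0.20 (SE 0.04, limma adjusted p = 0.0165). SLC50A1, the nearest measured one after EFNA1, was at -0.08 (SE 0.05, limma adjusted p = 0.305). MUC1, a mucin gene of the same stretch, rose by 0.25 (SE 0.04, limma adjusted p = 0.0109). The values of EFNA3 and EFNA1 lay below those of all 12 neighbours.

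**Figure D2:**
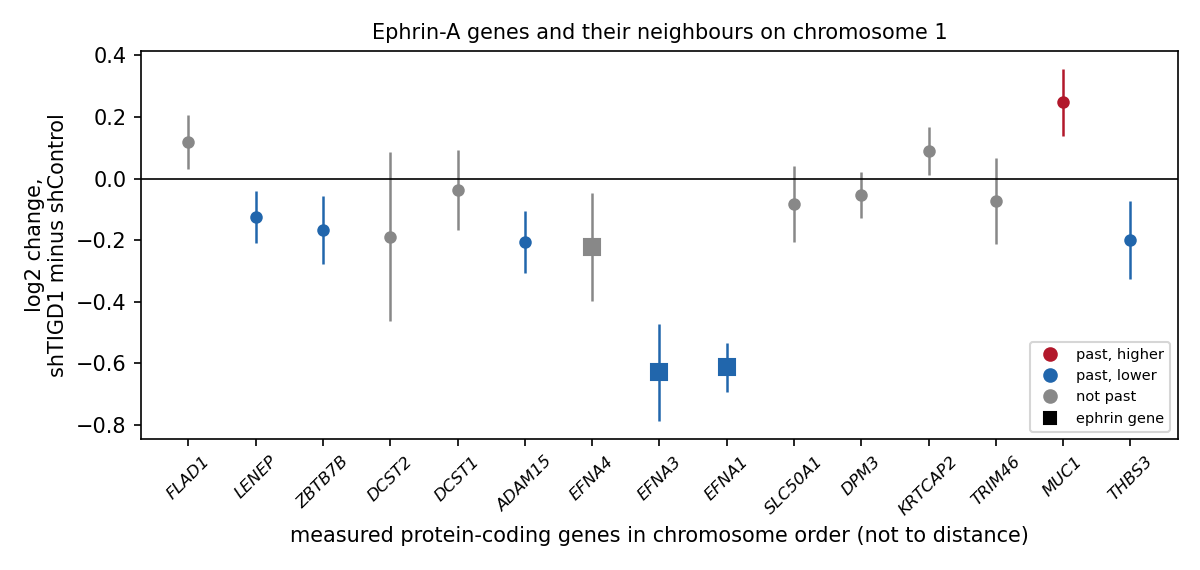
Log2 change, shTIGD1 minus shControl, with 95% intervals, of the 3 neighbouring ephrin genes (squares) and 6 measured genes on each side, in chromosome order but not to distance. EFNA3 and EFNA1 lie near -0.6, and the neighbours lie between -0.20 and 0.25.

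Among the EPH receptors, EPHA2 and EPHB4 fell and the other 8 did not pass. EPHA2, which is known to be abundant in carcinoma cells and to be activated by EFNA1, read 9.30, 9.23 and 9.28 in shTIGD1, against 9.74, 9.77 and 9.69 in shControl. It was lower on every shTIGD1 array and fell 1.38-fold (-0.46, SE 0.04, limma adjusted p = 0.000997), with its other probe set at -0.54. EPHB4, the receptor of EFNB2, read 8.84, 8.79 and 8.86 in shTIGD1, against 9.02, 9.13 and 8.99 in shControl. It fell by 0.22 (SE 0.05, limma adjusted p = 0.0227), and all 5 of its probe sets were lower, 2 past the threshold. The call of EPHB4 was lost without shTIGD1 replicate 1, 2 or 3 or shControl replicate 1, at an adjusted p of up to 0.0714. The sign of the EPHB4 difference turned when arrays were levelled on the poly-A controls, which adds 0.33 to every log2 change, and kept when they were levelled on the hybridization controls, which adds 0.21.

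The other EPH receptors gave differences between -0.16 and 0.08. EPHA4, EPHB1 and EPHB3 had mean signals above 6, with differences of -0.08, -0.06 and -0.08. EPHA1 was at 4.91 ± 0.10 in shTIGD1, against 5.02 ± 0.09 in shControl (SD, n = 3 each). EPHA3, EPHA5, EPHA7 and EPHB6, a receptor whose kinase domain is inactive, were near background in both groups.

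Each of the FGF receptors passed as higher with its brightest probe set, FGFR2 with the largest change. FGFR2, a receptor spliced to epithelial and mesenchymal forms that bind different FGFs, read 6.98, 6.99 and 7.12 in shTIGD1, against 6.58, 6.54 and 6.47 in shControl. The groups were separate by more than the range of either, and FGFR2 rose 1.42-fold (0.50, SE 0.05, limma adjusted p = 0.00184). Its 4 brightest probe sets rose by 0.44 to 0.59, and 5 of all 12 passed as higher and 0 as lower. The spliced forms were not told apart here.

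FGFR4, the receptor of FGF19 with the coreceptor KLB, read 8.47, 8.49 and 8.55 in shTIGD1, against 8.31, 8.37 and 8.26 in shControl. It rose by 0.19 (SE 0.04, limma adjusted p = 0.0228), and 4 of its 7 probe sets passed as higher. The dimmest was at -0.19 and did not pass. FGFR3 read 7.18, 7.07 and 7.11 in shTIGD1, against 7.003, 6.84 and 6.81 in shControl, and rose by 0.24 (SE 0.06, limma adjusted p = 0.0347). Its other probe set was at -0.11. FGFR1, the form common in mesenchymal cells, read 9.24, 9.26 and 9.27 in shTIGD1, against 9.16, 9.12 and 9.03 in shControl. Its difference was close to the threshold (0.15, SE 0.04, limma adjusted p = 0.0454), and of its 6 other probe sets 3 were higher and 3 lower without passing. In the fit over all probe sets, the brightest probe set of FGFR1 did not pass either (limma adjusted p = 0.0546). The calls of FGFR1 and FGFR3 were lost on leaving out any array except shControl replicate 1 (adjusted p up to 0.121 and 0.106), and that of FGFR4 without shTIGD1 replicate 2 or 3 or shControl replicate 1 or 3 (adjusted p up to 0.0734). FGFR2 held in all 6 such fits. With the mean of all probe sets FGFR1 and FGFR3 did not pass (0.02 with limma adjusted p = 0.601 and 0.06 with limma adjusted p = 0.383), while FGFR2 and FGFR4 did. Of the FGF ligands measured, FGF2 was at 8.90 ± 0.03 in shTIGD1, against 8.78 ± 0.11 in shControl (SD, n = 3 each), and did not pass. FGF18 fell by 0.31 (SE 0.05, limma adjusted p = 0.00875), with both groups near background.

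The receptors for insulin-like growth factors and insulin both rose. Their relative INSRR, from the list of related genes, was near background in both groups and did not pass (-0.08, limma adjusted p = 0.548). IGF1R, which binds IGF1 and IGF2, read 10.13, 10.29 and 10.13 in shTIGD1, against 9.73, 9.81 and 9.89 in shControl. It rose 1.29-fold (0.37, SE 0.06, limma adjusted p = 0.00907) with its brightest probe set. Its 6 other probe sets lay between -0.12 and 0.17 and did not pass. INSR read 7.05, 7.07 and 7.11 in shTIGD1, against 6.72, 6.81 and 6.75 in shControl. It rose 1.24-fold (0.32, SE 0.04, limma adjusted p = 0.0029), and its other probe sets lay between -0.18 and 0.26, none past the threshold. With the mean of all probe sets, neither passed (0.09 with limma adjusted p = 0.118 for IGF1R and 0.10 with limma adjusted p = 0.201 for INSR). IGF1, near background in shTIGD1 at 4.87 ± 0.04, against 5.22 ± 0.09 in shControl, fell by 0.36 (SE 0.05, limma adjusted p = 0.00581), and its 4 other probe sets lay between -0.55 and -0.06.

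AXL, a receptor of the TAM family known for its part in invasion and drug resistance, read 10.67, 10.60 and 10.67 in shTIGD1, against 10.24, 10.24 and 10.28 in shControl. All 3 shTIGD1 arrays were above all shControl arrays, and AXL rose 1.31-fold (0.39, SE 0.04, limma adjusted p = 0.0013). Its dimmer probe set was at 0.10 (limma adjusted p = 0.512). TYRO3, of the same family, read 6.15, 6.15 and 6.17 in shTIGD1, against 5.84, 5.998 and 6.04 in shControl. It missed the threshold (0.19, SE 0.06, limma adjusted p = 0.0519). MERTK was near background in shTIGD1, at 4.89 ± 0.14, against 5.04 ± 0.08 in shControl (SD, n = 3 each). Of the ligands, GAS6, which binds all 3 receptors, was at 0.05 (SE 0.07, limma adjusted p = 0.638). PROS1, a ligand of TYRO3 and MERTK, read 10.19, 10.16 and 10.21 in shTIGD1, against 9.78, 9.79 and 9.76 in shControl. It rose by 0.41 (SE 0.03, limma adjusted p = 0.000799), with all 3 of its probe sets past the threshold and higher.

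**Figure D3:**
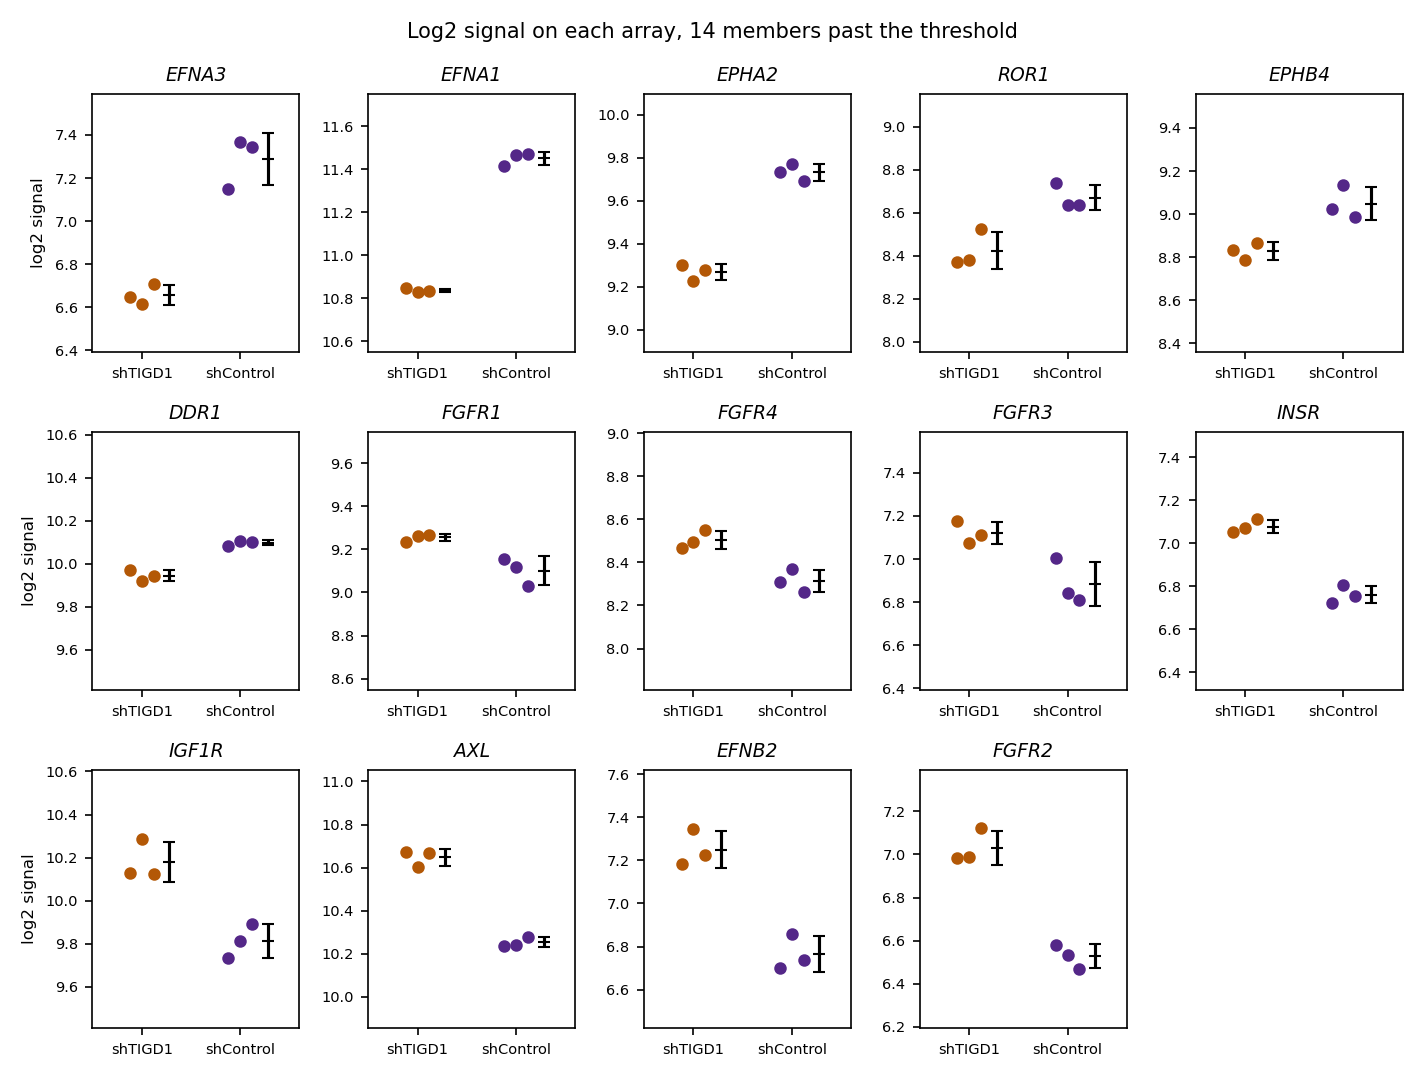
Log2 signal on each array for the 14 genes that passed, ordered from the lowest to the highest log2 change; orange points are the 3 shTIGD1 arrays, purple points the 3 shControl arrays, and bars the mean ± SD. Every panel spans the same height on the log2 scale but starts at its own level, and the groups do not overlap in any panel.

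DDR1, a receptor activated by collagen, read 9.97, 9.92 and 9.94 in shTIGD1, against 10.08, 10.11 and 10.10 in shControl, and fell by 0.15 (SE 0.03, limma adjusted p = 0.0184). All 4 of its probe sets were lower and 2 passed. DDR2, its relative in connective tissue, was at -0.07 with its brightest probe set, while another probe set, near background in both groups, passed at -0.30 (limma adjusted p = 0.0378). ROR1, a receptor for WNT5A that is known to be needed for survival of some lung adenocarcinoma cells, read 8.37, 8.38 and 8.52 in shTIGD1, against 8.74, 8.64 and 8.64 in shControl. It fell by 0.25 (SE 0.06, limma adjusted p = 0.0234). The signs of the DDR1 and ROR1 differences turned with poly-A levelling, and that of DDR1 also with hybridization levelling. WNT5A itself read 7.30, 7.24 and 7.21 in shTIGD1, against 7.37, 7.42 and 7.31 in shControl, and did not pass (limma adjusted p = 0.107). The DDR1 call was lost without shTIGD1 replicate 2 or 3 or shControl replicate 2 or 3 (adjusted p up to 0.061), and the ROR1 call without shTIGD1 replicate 1 or 2 or shControl replicate 1 or 3 (adjusted p up to 0.0772).

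RYK and PTK7, atypical receptors of Wnt signalling with inactive kinase domains, did not pass. RYK was at 9.39 ± 0.02 in shTIGD1, against 9.39 ± 0.07 in shControl (SD, n = 3 each), and the 95% interval of its difference ran from -0.11 to 0.11. PTK7 had a difference of -0.13 (SE 0.05, limma adjusted p = 0.113). MET, the receptor of hepatocyte growth factor, read 10.68, 10.73 and 10.69 in shTIGD1, against 10.78, 10.80 and 10.77 in shControl. Its groups did not overlap, but the difference did not pass (-0.08, SE 0.03, limma adjusted p = 0.129). One of its dimmer probe sets passed the other way, at 0.36 (limma adjusted p = 0.00713). MST1R, the related receptor of macrophage stimulating protein, was at -0.08 (SE 0.06, limma adjusted p = 0.438).

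**Figure D4:**
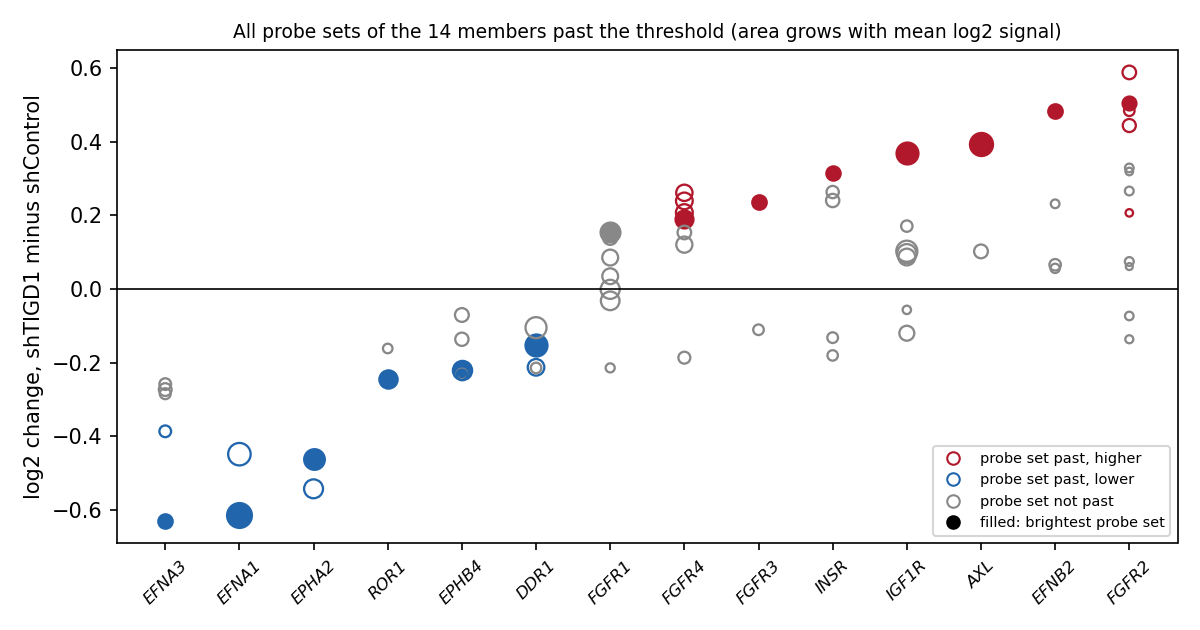
Log2 change, shTIGD1 minus shControl, of every probe set of the 14 genes that passed; each circle is a probe set, its area grows with the mean signal, filled circles are the brightest of each gene, and colours mark the call in a fit over all probe sets. The probe sets of EFNA1, EFNA3, EPHA2, EPHB4, DDR1 and ROR1 all lie under 0. Those of FGFR1, FGFR2, FGFR3, FGFR4, IGF1R and INSR lie on both sides of 0.

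Receptors known from endothelial, blood and connective tissue cells were dim and did not pass. FLT1, TEK, KIT and PDGFRA were near background in both groups. KIT, the receptor of stem cell factor, had the largest difference of them (0.27, SE 0.08, limma adjusted p = 0.0523), with its second probe set at -0.28. PDGFRB was at 5.59 ± 0.13 in shTIGD1, against 5.79 ± 0.06 in shControl (SD, n = 3 each; limma adjusted p = 0.0958). CSF1R and TIE1 gave differences of -0.06 and -0.07. RET and ROS1 were near background, and LTK and LMTK2 differed by -0.06 and 0.01. The summed linear signal of 8 endothelial markers was 199 to 212 in shTIGD1, against 199 to 212 in shControl, with 4 of the 8 under 5 in both groups and 1, ESAM, higher. That of 8 fibroblast and pericyte markers was 251 to 284 in shTIGD1, against 283 to 297 in shControl, and 1 of them, COL3A1, fell. Of 7 immune markers, 1 fell and 4 were under 5 in both groups. The sample titles name A549 cells only, and no other cell type. In bulk RNA, a change in the share of cells and a change in RNA per cell cannot be told apart. The epithelial adhesion genes CDH1 and EPCAM rose by 0.66 and 0.87 (SE 0.04 and 0.06), and the other 4 of 6 epithelial markers did not pass.

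Among 111 further genes of receptor tyrosine kinase signalling, each read from its brightest probe set, 16 rose, 25 fell and 70 did not pass. Their median log2 change was -0.05. The counts of rises here and below include NTRK3 and GRB10, whose probe sets disagree. Other probe sets were compared only for the genes that passed and changed by at least 0.3 on the log2 scale. The 41 that passed are 36.9% of these genes, where 23.8% of all genes passed and 35.1% of those with a mean signal of at least 6. Of 27 ligands, 3 rose and 6 fell. The angiogenic growth factor VEGFC fell by 0.55 (SE 0.05, limma adjusted p = 0.00142). PDGFA rose by 0.39 (SE 0.05, limma adjusted p = 0.00364), while its receptor PDGFRA was near background. Of 17 other receptors and ephrins, 2 rose and 3 fell. NTRK3, a neurotrophin receptor, rose by 0.49 and 0.59 with its brighter probe sets and fell by 0.30 and 0.21 with the others, so no direction is given. Of 18 coreceptors and ligand activators, 1 rose and 5 fell. The largest of these changes was in SDC4, a heparan sulfate proteoglycan that helps FGFs bind their receptors. It read 9.63, 9.59 and 9.65 in shTIGD1, against 10.22, 10.32 and 10.26 in shControl, and fell by 0.64 (SE 0.04, limma adjusted p = 0.000388).

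Adaptors and first effectors moved both ways, with 5 of 23 higher and 4 lower. SOS2, an exchange factor for RAS, rose by 0.38 (SE 0.07, limma adjusted p = 0.0122), and NGEF, an exchange factor downstream of EPHA receptors, rose by 0.37 (SE 0.06, limma adjusted p = 0.00548). The adaptor gene CRKL fell by 0.40 (SE 0.05, limma adjusted p = 0.00361). Of 20 genes for brakes and turnover, 3 rose and 5 fell. CBLB, a ubiquitin ligase for activated receptors, and HGS, which sorts them to the lysosome, fell by 0.33 each (SE 0.03 and 0.04, limma adjusted p = 0.00156 and 0.00236). GRB10, an adaptor that dampens insulin and IGF1 receptors, rose by 0.89 with its brightest probe set (SE 0.04, limma adjusted p = 0.000198). Its 2 other probe sets fell, by 0.24 and 0.26, so no direction is given for it. Of 6 shedding proteases, ADAM10 and ADAM12 rose by 0.20 and 0.31 and ADAM17 and ADAM15 fell by 0.28 and 0.20 (SE 0.05, 0.08, 0.04 and 0.04). ADAM10 is known to cleave ephrin-A ligands. Levelling on the hybridization controls turned the sign of 7 of these 41 calls, and levelling on the poly-A controls that of 19.

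**Figure D5:**
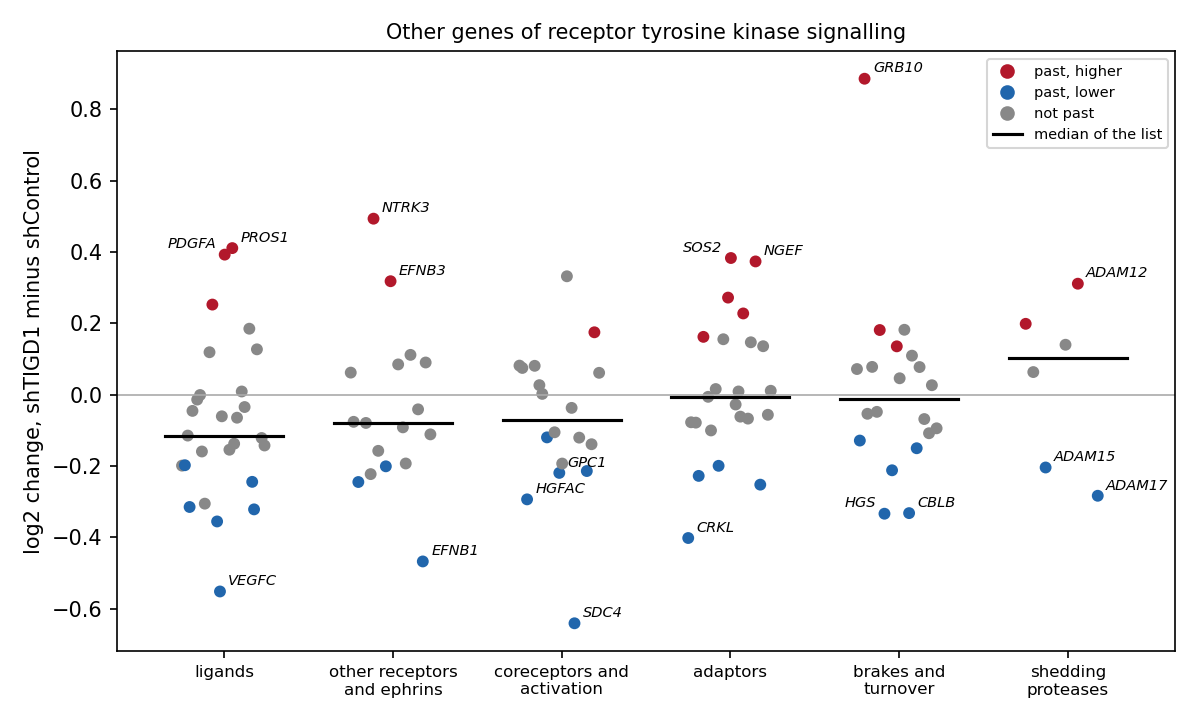
Log2 change, shTIGD1 minus shControl, of 111 further genes in 6 lists of receptor tyrosine kinase signalling. Each point is a gene read from its brightest probe set. Red passed as higher, blue as lower and grey did not pass, and black bars are list medians. SDC4 and VEGFC lie lowest, and GRB10, whose probe sets disagree, lies highest.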

How the data were processed

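Biotin-labelled cRNA from 6 total RNA samples was read on Affymetrix 3′ arrays with 1 colour, per the labels' protocols. The authors deposited log2 values for each probe set. The submitters' processing notes name GCOS and RMA without a version. Base 2 was inferred from the values' range. RMA makes array distributions alike, so a shift common to most genes would have been removed.

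Of 49395 probe sets, 102 controls were left out, and 45278 of the others had exactly 1 gene symbol (1333 had several, 2682 none). Symbols were checked by Entrez identifier, which changed 0 of them. The probe set with the highest mean stood for each of 18244 genes. The 3 shTIGD1 and 3 shControl arrays were compared by limma 3.58.1 (lmFit, eBayes) under R 4.3.3. Its two-sided p-values were adjusted by Benjamini and Hochberg's method across the 18244 genes. Except in the alternatives below, other probe sets of a gene were called in a separate fit over the 45278 probe sets. The fit was tested on simulated arrays of 18244 genes for this comparison, with 50 genes changed at each size. It found 40% of them at 1.2-fold and 80% at 1.5-fold, and over all sizes 11 of 166 calls were false. In the data 4340 genes passed. The adjusted threshold depends on how many genes change, so the simulated rates may not hold for the data. Tables and figures were made with Python 3.11.15 and pandas 2.3.3.

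The genes followed, the lists and the tests were chosen with earlier results of these data known. All genes of the set could be named, and of each related list up to 4 that passed with the largest changes, with ligands of genes that passed. The chromosome neighbours were chosen after values were seen. Alternatives were other probe set summaries, normalizations, filters, variance models, control scalings, the replicate number as a block and leaving out each array.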

Additional observations from a re-analysis of the deposited data

How the results depend on the processing

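The log2 changes of EFNA1, EPHA2 and FGFR2 kept their direction and passed under all 9 other settings and all 6 fits without 1 array. AXL, EFNA3 and EFNB2 failed only when read from the next brightest probe set (adjusted p = 0.528, 0.0671 and 0.817), and IGF1R and INSR also with the mean of all probe sets. Over the 14 genes, 165 of 210 such values stayed past the threshold, 43 missed it in the same direction and 2 turned, FGFR1 (-0.001) and FGFR3 (-0.11), both with the second brightest probe set. The cause was not tested. On that probe set 5 of the 44 genes passed, of which 4 (EFNA1, EPHA2, FGFR2 and FGFR4) also passed on the brightest and 1 (DDR2) did not. The share of all genes that passed on that probe set is not given here, so the 5 have no baseline. Leaving out 1 array gave 8 to 11 of the 44, 2741 to 3386 of all genes and 24 to 29 of the 111 related genes, where fewer samples were fitted; the 44 were lowest without shTIGD1 replicate 2, and all genes and the related genes without shTIGD1 replicate 1.

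The replicate block left 2391 genes, 9 of the 44 and 22 of the 111. Same-numbered arrays did not deviate together (correlations of -0.03, -0.13 and -0.09), so the numbers were not taken as pairs. Hybridization control scaling gave 9096 genes (8735 higher and 361 lower) and 23 of the 44 (20 higher and 3 lower), and poly-A control scaling 14073 genes (13954 higher and 119 lower), 36 of the 44 (33 higher and 3 lower) and 77 of the 111 (75 higher and 2 lower). By construction these add 0.21 and 0.33 to each log2 change. TIGD1 turned to 0.15 and 0.28. DDR1 turned under both and EPHB4 and ROR1 under the second. The 8 genes that rose could not turn, because a positive amount was added to each. EFNA1, EFNA3 and EPHA2 stayed below 0.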
